A study of Mus musculus with 10 samples.

Results

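The genes of the mitochondrial genome were followed across 10 RNA-seq libraries of fetal mouse oocytes. They were taken as all genes whose symbol begins with mt- in the deposited expression table, which gave 37 of the 55536 genes: 13 protein-coding, 2 ribosomal RNA (rRNA) and 22 transfer RNA (tRNA) genes. Of these, 24 passed edgeR's filter on low counts and were tested, namely all 13 protein-coding genes, both rRNA genes and 9 tRNA genes. The oocytes came from female embryos at E16.5, late in gestation, labelled C57BL/6. Their parents carried 2 copies of an Oct4-EGFP transgene (B6;129S4-Pou5f1tm2Jae/J), which marks germ cells, and 1 copy of a Taf4b-deficiency mutation. Cells of the embryonic gonads that were green fluorescent and not stained by propidium iodide, a dye of dead cells, were sorted. The design compares 5 Taf4b-heterozygous with 5 Taf4b-deficient libraries. The heterozygous libraries are the control and carry the mutation too, and no wild-type library was analysed here. TAF4b is a subunit of TFIID, the complex that places RNA polymerase II at nuclear promoters. The labels give 3 litter dates: date 1 holds heterozygous 1 and 2 and deficient 1, date 2 holds heterozygous 3 and 4 and deficient 2 and 3, and date 3 holds heterozygous 5 and deficient 4 and 5. The labels do not say whether each library is its own embryo, so a p-value here reflects only how far libraries spread, which may be technical.

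Mammalian mitochondrial DNA is a small circle that is passed on through the oocyte. A dedicated RNA polymerase, POLRMT, transcribes both strands into long precursors, and the tRNAs that lie between the other genes are cut out to release the rRNAs and mRNAs. The mRNAs encode core subunits of respiratory complexes I, III and IV and of ATP synthase, and the rRNAs and tRNAs serve the ribosomes inside the organelle. All proteins that transcribe, process and translate these RNAs are encoded in the nucleus. Copies of mitochondrial sequence also lie in nuclear chromosomes, where reads from a transcript and from its copy can be hard to tell apart.

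Sequences are shown from the GENCODE M21 transcripts (GRCm38), 5′ to 3′ on the strand of the gene. The first pair shows how close a nuclear copy can be: the first 60 bases of mt-Nd3 (chrM:9459-9518, plus strand) and of its copy Gm28438 (chr1:24613060-24613119, minus strand), with the differing base in capitals. It is the substitution T3C, counted from 1 at the 5′ end of mt-Nd3, and no other base differs over the 345 aligned bases.
mt-Nd3: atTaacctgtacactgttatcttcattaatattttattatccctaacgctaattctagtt
Gm28438: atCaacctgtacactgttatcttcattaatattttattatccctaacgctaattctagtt
The next sequence is the last 90 bases of mt-Atp8 (chrM:7880-7969, plus strand). It shows the 43 bases that this gene shares with mt-Atp6, in capitals, over which a read cannot be given to either gene alone.
mt-Atp8: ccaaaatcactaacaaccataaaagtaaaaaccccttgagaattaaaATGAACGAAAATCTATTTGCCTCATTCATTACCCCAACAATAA
The last set holds the 5 tRNA genes with the highest CPM (counts scaled to a common library size), whole and with the anticodon in capitals. All but mt-Tm are encoded on the minus strand. They lie at chrM:15356-15422 (mt-Tp, proline), chrM:5089-5159 (mt-Tn, asparagine), chrM:3772-3842 (mt-Tq, glutamine), chrM:5192-5257 (mt-Tc, cysteine) and chrM:3845-3913 (mt-Tm, methionine).
mt-Tp: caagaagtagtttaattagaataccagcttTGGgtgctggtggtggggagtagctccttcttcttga
mt-Tn: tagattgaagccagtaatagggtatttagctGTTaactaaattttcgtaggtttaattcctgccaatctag
mt-Tq: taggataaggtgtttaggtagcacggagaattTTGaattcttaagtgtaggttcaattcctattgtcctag
mt-Tc: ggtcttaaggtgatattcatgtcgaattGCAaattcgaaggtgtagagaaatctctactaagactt
mt-Tm: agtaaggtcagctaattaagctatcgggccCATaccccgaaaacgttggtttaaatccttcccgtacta

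The libraries held between 16707200 and 26983600 counts (rounded). Germ cell markers summed to 3924 to 5915 CPM in heterozygous and 3269 to 5228 CPM in deficient libraries. Among them, Dazl was at 1221 to 2727 CPM, while Pou5f1, the gene whose reporter was used for sorting, was at 0.172 to 1.16 CPM and was not tested. Erythroid markers (9 of 10 found) summed to 65.7 to 2079 CPM in heterozygous and 107 to 1602 CPM in deficient libraries. Hba-a1, which encodes alpha-globin, stood at 260, 796 and 588 CPM in the library labelled heterozygous 4, heterozygous 5 and deficient 5, and at 23.9 to 102 CPM elsewhere. These 3 are called the globin-high libraries. Macrophage markers summed to 113 to 224 and 57.1 to 186 CPM, and pregranulosa markers to 31.2 to 79.3 and 25.9 to 80.7 CPM in heterozygous and deficient libraries. Taf4b was at 101 to 290 CPM in heterozygous 1, 2, 3 and 5. The library labelled heterozygous 4 had 65.5 CPM and lay among the deficient libraries (58.0 to 81.5 CPM), so this gene cannot serve as a check of its label.

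The 37 genes took 2.28% ± 0.984 (SD, n = 5) of all counts in heterozygous and 2.46% ± 0.647 (SD, n = 5) in deficient libraries. Heterozygous 1 to 5 were at 2.37%, 1.85%, 0.853%, 3.04% and 3.31%, and deficient 1 to 5 at 2.41%, 2.56%, 1.52%, 2.48% and 3.34%. The groups overlapped, and the lowest share was that of heterozygous 3. The 3 highest were those of the globin-high libraries, at 3.04% to 3.34% against 0.853% to 2.56% in the other libraries. The factors that scale CPM were highest in these libraries too, at 1.10 to 1.17 against 0.859 to 1.02, and the shares leave this scaling out. For the rRNA genes alone the ranges overlapped, at 0.707% to 0.894% and 0.184% to 0.814%. The part of erythroid cells in these shares was not tested. In bulk libraries, fewer cells of a type and less RNA per cell cannot be told apart. The difference of the means, deficient minus heterozygous, was 0.18 percentage points, and it was −0.18 without heterozygous 3, so 1 library set its sign.

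**Figure D1:**
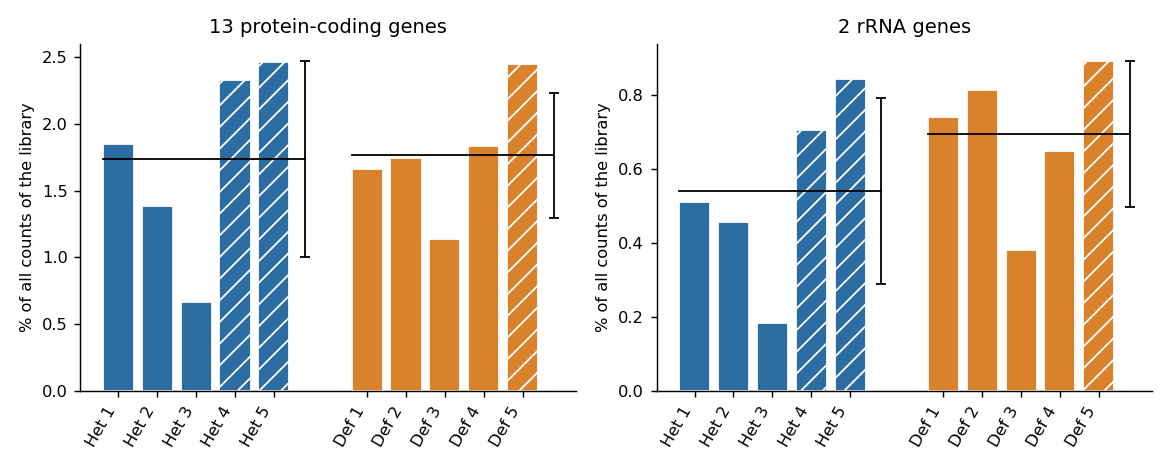
Percent of all counts of a library on the 13 protein-coding and on the 2 rRNA genes of the mitochondrial genome, for heterozygous (Het, blue) and deficient (Def, orange) libraries. Hatched bars are the globin-high libraries, lines are group means and error bars are SD (n = 5). Het 3 is the lowest bar in both panels, and the groups overlap in both.

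The protein-coding genes took 1.74% ± 0.733 (SD, n = 5) of counts in heterozygous and 1.76% ± 0.467 (SD, n = 5) in deficient libraries. The rRNA genes took 0.541% ± 0.252 and 0.695% ± 0.198 (SD, n = 5 each). All 22 tRNA genes together took 0.003525% ± 0.00212 and 0.00326% ± 0.000662 (SD, n = 5 each), which amounts to 7066 counts in all 10 libraries. Whether RNA was selected by its poly(A) tail and whether short RNA was kept is not given in the sources used, so shares between classes describe these libraries and not the cells.

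Both rRNAs had higher means in deficient than in heterozygous libraries, with ranges that overlapped. The small-subunit rRNA gene mt-Rnr1 (12S; chromosome M, 70 to 1024, plus strand) was at 367, 264, 264, 394 and 503 CPM in heterozygous 1 to 5. In deficient 1 to 5 it was at 587, 689, 246, 408 and 494 CPM. Deficient 2 was the highest library and deficient 3 the lowest, so both extremes lay in 1 genotype. Its log2 fold change, deficient over heterozygous, was 0.44 ± 0.28 (SE), and the adjusted p was 0.445 (edgeR's quasi-likelihood test, Benjamini-Hochberg adjustment over all tested genes). The large-subunit rRNA gene mt-Rnr2 (16S; chromosome M, 1094 to 2675, plus strand) was at 5147, 4235, 1874, 5669 and 7139 CPM in heterozygous 1 to 5. Deficient 1 to 5 had 6818, 7629, 3797, 6500.4 and 7584 CPM. Heterozygous 3 was lowest and deficient 2 highest. For mt-Rnr2 the log2 fold change was 0.43 ± 0.33 (SE), and its edgeR adjusted p was 0.543. The counts of mt-Rnr2 were 7.11 times those of mt-Rnr1 in heterozygous 3 and 11.1 to 16.0 times in the other 9 libraries.

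Complex I, the NADH dehydrogenase that feeds electrons into the respiratory chain, has 7 subunits encoded here. The highest of them, also per kilobase of gene, was mt-Nd1, at 2716 ± 1100 CPM in the heterozygous and 2556 ± 517 CPM in the deficient libraries (SD, n = 5 each). mt-Nd4 was at 1009 ± 428 and 1142 ± 316 CPM, and mt-Nd2 at 817 ± 418 and 789 ± 216 CPM (SD, n = 5 each). These 3 differed between genotypes by less than their SD. The longest gene, mt-Nd5, was at 967, 394, 219, 563 and 892 CPM in heterozygous 1 to 5. Deficient 1 to 5 had 801, 881, 660, 1124 and 939 CPM. Every deficient library lay above heterozygous 2, 3 and 4, but heterozygous 1 lay above 4 of the 5. Its log2 fold change was 0.54 ± 0.35 (SE), with an edgeR adjusted p of 0.446. mt-Nd6, the only mRNA gene of the minus strand (chromosome M, 13552 to 14070), was at 217, 69.5, 53.0, 108 and 193 CPM in heterozygous 1 to 5. The deficient libraries had 201, 239, 90.4, 241 and 196 CPM. Deficient 3 fell among the low heterozygous libraries. Its log2 fold change of 0.60 ± 0.38 (SE) was the largest in size of the 24 tested genes, and its edgeR adjusted p of 0.444 the smallest. mt-Nd5 and mt-Nd6 overlap by 14 bases on opposite strands, and the sources used here do not give whether counting used strand, so their counts are uncertain there.

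The smallest mRNAs of complex I stood far lower, at 73.4 (mt-Nd3) and 8.11 (mt-Nd4l) against 2755 CPM per kilobase for mt-Nd1. mt-Nd3 had 37.0, 16.8, 0.647, 38.8 and 48.6 CPM in heterozygous 1 to 5, and 21.2, 21.7, 11.9, 26.4 and 32.2 CPM in deficient 1 to 5. mt-Nd4l had 1.82, 0.927, 0.345, 5.10 and 5.48 CPM in the former and 1.71, 2.26, 1.35, 1.80 and 3.29 CPM in the latter. For both genes the lowest library and the 2 highest were heterozygous. Their log2 fold changes were −0.32 ± 0.65 and −0.39 ± 0.59 (SE), and each was smaller than its SE. mt-Nd4l shares 7 bases with mt-Nd4.

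Complex III, which passes electrons on to cytochrome c, has a single subunit encoded here, cytochrome b. Its gene mt-Cytb was at 4377 ± 1419 CPM in the heterozygous and 4277 ± 1145 CPM in the deficient libraries (SD, n = 5 each). The log2 fold change was −0.03 ± 0.29 (SE). Complex IV, cytochrome c oxidase, passes electrons to oxygen, and its catalytic subunit is encoded by mt-Co1. mt-Co1 was the highest of all 37 genes by CPM and by CPM per kilobase, at 8434, 6210.1, 3176, 8341 and 8172 CPM in heterozygous 1 to 5. The deficient libraries had 7495, 7784, 5465, 7959 and 9234 CPM. Heterozygous 3 was far below the other 9 libraries, and the log2 fold change of mt-Co1 was 0.14 ± 0.29 (SE). The other core subunit genes of complex IV stood far lower, at 55.5 (mt-Co2) and 95.6 (mt-Co3) against 4678 CPM per kilobase for mt-Co1. mt-Co2 was at 35.3 ± 19.7 and 40.6 ± 14.2 CPM, and mt-Co3 at 73.2 ± 40.7 and 76.6 ± 23.6 CPM (SD, n = 5 each, heterozygous before deficient). ATP synthase has 2 subunits encoded here. mt-Atp6 was at 59.95 ± 54.5 and 65.6 ± 35.2 CPM, and mt-Atp8 at 2.48 ± 1.25 and 2.39 ± 1.05 CPM (SD, n = 5 each).

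**Figure D2:**
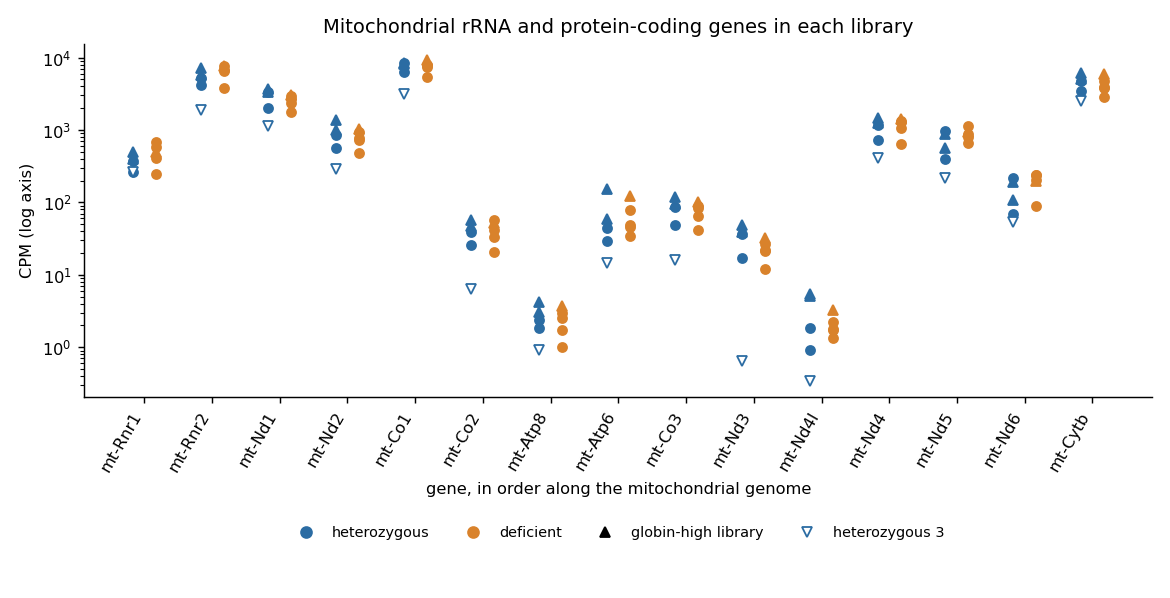
CPM on a log axis for the 2 rRNA and 13 protein-coding genes, in genome order, with a point for each heterozygous (blue) and deficient (orange) library. Open triangles are heterozygous 3, which is lowest for 13 of 13 protein-coding genes, and filled upward triangles are the globin-high libraries.

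Counts per kilobase of gene differed with position among the protein-coding genes, and position went with gene length. Alignment of the transcripts with blastn placed 7 pseudogenes in a row on chromosome 1 (GRCm38, 24611535 to 24616197, minus strand) that match positions 6390 to 11042 of chromosome M. The pseudogenes are Gm29216, Gm28661, Gm10925, Gm28437, Gm28438, Gm10222 and Gm28439, and they match mt-Co1, mt-Co2, mt-Atp6, mt-Co3, mt-Nd3, mt-Nd4l and mt-Nd4. Of these, 5 were identical over the aligned bases, and Gm28438 and Gm29216 each had 1 substitution, T3C in mt-Nd3 and A1066T in mt-Co1. The 6 genes that lie wholly inside the copied stretch (mt-Co2, mt-Atp8, mt-Atp6, mt-Co3, mt-Nd3 and mt-Nd4l) had mean levels of 8.11 to 95.6 CPM per kilobase. The 5 genes outside it (mt-Nd1, mt-Nd2, mt-Nd5, mt-Nd6 and mt-Cytb) had 310 to 3782 CPM per kilobase. mt-Nd4 and mt-Co1, which reach across its edges, had 781 and 4678 CPM per kilobase. So the highest gene inside the stretch lay below the lowest gene outside it, and the genes inside held 1.19% of the counts of all 13. The genes inside are also short, from 204 bases (mt-Atp8) to 784 bases (mt-Co3). Outside, only mt-Nd6 is that short, at 519 bases, and it had the lowest level there, at 310 CPM per kilobase. Inside, mt-Co2, mt-Atp6 and mt-Co3 are longer than mt-Nd6 and had 55.5, 92.2 and 95.6 CPM per kilobase. The next shortest gene outside, mt-Nd1, has 957 bases. With 1 gene this short outside, position and length cannot be told apart over the class, and the part of each was not tested.

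**Figure D3:**
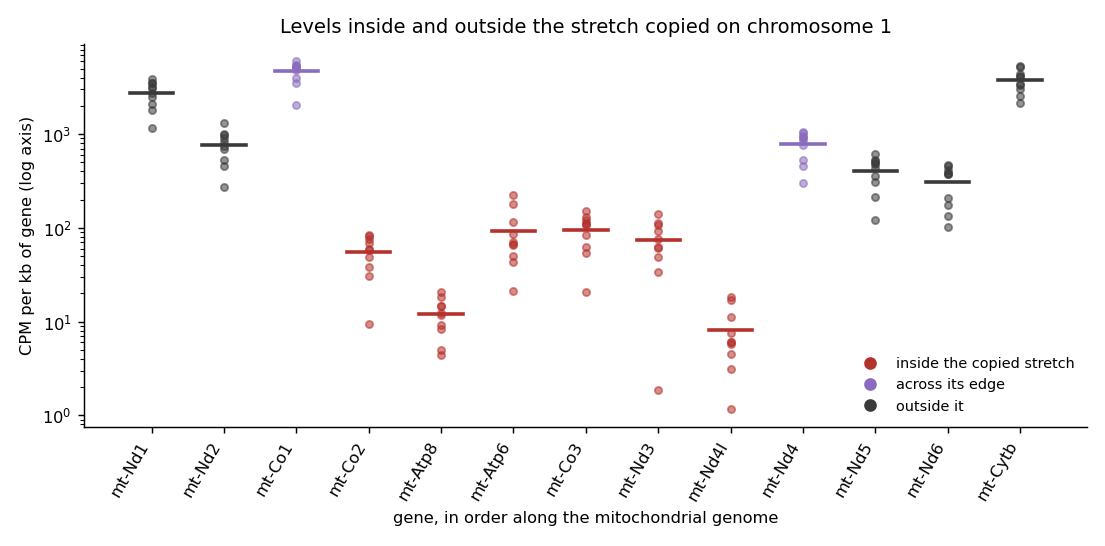
CPM per kilobase of gene on a log axis for the 13 protein-coding genes in genome order. Points are the 10 libraries and bars their means. Genes inside the stretch copied on chromosome 1 (red) have means of 8.11 to 95.6, those outside it (black) 310 to 3782. The genes inside are also short, at 204 to 784 bases.

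Counts were also deposited for the pseudogenes themselves. Summed over all libraries, the copy held 65.3% of the counts of the pair for mt-Co3 and Gm28437, 56.3% for mt-Atp6 and Gm10925, 45.7% for mt-Co2 and Gm28661, 36.0% for mt-Nd4l and Gm10222, and 9.16% for mt-Nd3 and Gm28438. For the genes that reach across the edges it held 1.01% (mt-Co1 and Gm29216) and 0.514% (mt-Nd4 and Gm28439). The share of the copy ranged from 60.1% to 69.8% between libraries for mt-Co3, and from 31.0% to 87.0% for mt-Atp6. The upper end of mt-Atp6 was deficient 4, where Gm10925 was at 306 CPM against 13.1 to 187 CPM in the other libraries. With the counts of the copy added, the 5 genes inside the stretch that have a named copy had mean levels of 12.7 to 274 CPM per kilobase. That is still below each of the 5 genes outside. The sources used here do not give how reads with several equal alignments were counted, and the part this plays in the low counts was not tested. Levels of these 6 genes and of their copies are therefore uncertain. None of the 7 copies was called between genotypes. The largest of their log2 fold changes in size were −0.81 ± 0.77 (SE) for Gm28438 and 0.73 ± 0.48 (SE) for Gm29216. For Gm10925 the value was 0.54 ± 0.76 (SE), and it was −0.65 without deficient 4.

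Other copies were less alike and drew few counts. On chromosome 2, Gm13340 and Gm13341 match the whole of mt-Co1 and of mt-Co2, and Gm13339 matches 49.1% of mt-Nd2, at 95.9% to 97.6% identity, and the most abundant, Gm13340, was at 6.91 CPM on average. Copies of mt-Nd5, mt-Nd6 and mt-Cytb on chromosomes 4 and 13 (Gm11407, Gm4076, Gm11408 and Gm11410) and a copy of mt-Co1 on chromosome 11 (Gm11512) had 4 to 25 counts each over all libraries. mt-Nd1 and the rRNA genes had no annotated copy above 90% identity over 200 bases.

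TPM (an abundance scaled by transcript length and by library) was deposited as well, and it orders these genes differently. By TPM the highest were mt-Cytb at 10759, mt-Nd2 at 6569, mt-Co1 at 6350 and mt-Rnr2 at 4759, while mt-Nd1 was at 411. By CPM per kilobase the order was mt-Co1 at 4678, mt-Cytb at 3782, mt-Rnr2 at 3565 and mt-Nd1 at 2755. In all 13393 genes with at least 20 counts in every library, the TPM equalled the count divided by a constant of the gene and a constant of the library, to within a relative difference of 1e-06. The TPM of a gene thus hold no measurement that the counts do not, and differences between genes depend on the constant. Expressed as a length, with the median gene set equal to its annotated exon length, the constant was 8083 bases for mt-Nd1, which is annotated with 957 bases, and 155 bases for mt-Nd2, which is annotated with 1038. It was 0.150 to 1.02 times the annotated length in the 6 mitochondrial genes of 1038 bases or more, and 8.45 to 97.8 times in the 29 shorter ones that had counts. Genes under 1000 bases of exon had a median of 9.61 times over the whole table (n = 974), and genes of 2000 bases or more 0.999 times (n = 10777). Levels are for this reason compared between mitochondrial genes here as CPM per kilobase of annotated length.

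Within the protein-coding genes, most counts fell on 3. mt-Co1 held 42.4%, mt-Cytb 25.4% and mt-Nd1 15.2% of the summed counts of the class, as means over the 10 libraries, and together they held 80.6% to 87.0% in each library. The share of mt-Nd1 varied 1.23-fold between its highest and lowest library, that of mt-Co1 1.25-fold and that of mt-Nd3 26.2-fold. mt-Nd5 held 3.47% ± 0.918 (SD, n = 5) of the class in heterozygous and 5.04% ± 0.585 (SD, n = 5) in deficient libraries, with ranges of 2.81% to 4.85% and 4.25% to 5.76% that overlapped. For mt-Nd6 the shares were 0.736% ± 0.241 and 1.08% ± 0.252 (SD, n = 5 each), and the ranges overlapped too. mt-Cytb went the other way, at 26.8% ± 3.14 and 24.1% ± 1.80 (SD, n = 5 each). The rRNA counts were 0.306 ± 0.0307 times the protein-coding counts in heterozygous and 0.393 ± 0.0588 times in deficient libraries (SD, n = 5 each). Heterozygous 1 to 5 were at 0.277, 0.331, 0.274, 0.304 and 0.342, and deficient 1 to 5 at 0.445, 0.466, 0.334, 0.354 and 0.366. The deficient libraries were higher apart from deficient 3, which lay below heterozygous 5. These ratios are descriptions and were not tested.

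Heterozygous 3 stood apart within its genotype. It was the lowest library for 13 of 13 protein-coding genes, for 8 of 9 tested tRNA genes and for mt-Rnr2. Against the median of the other 4 heterozygous libraries, its protein-coding genes were 3.28-fold lower at the median. The gap was smallest for mt-Cytb (1.97-fold) and largest for mt-Nd3 (58.7-fold), with mt-Nd4l next (10.0-fold). For mt-Nd3 this is 15 counts, or 0.647 CPM, against a median of 37.9 CPM. The copy Gm28438 had 0 counts in heterozygous 3, which allows up to 3, and 0.882 to 8.11 CPM in the other 9 libraries. mt-Rnr1 was 1.44-fold lower in heterozygous 3. At the other end, heterozygous 5 was the highest library for 10 of 13 protein-coding genes.

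The tRNA genes drew few counts. The highest was mt-Tp, at 24.7, 8.81, 2.93, 19.2 and 30.0 CPM in heterozygous 1 to 5 against 13.6, 10.7, 8.12, 15.3 and 16.0 CPM in deficient 1 to 5, with heterozygous 3 lowest and heterozygous 5 highest. Next came mt-Tn at a mean of 5.78 CPM, mt-Tq at 4.92, mt-Tc at 2.09 and mt-Tm at 1.48 CPM. mt-Tm had 0.621, 0.649, 0.474, 3.59 and 2.97 CPM in the heterozygous and 0.880, 1.16, 1.16, 0.990 and 2.32 CPM in the deficient libraries. The 3 highest of these values were those of the globin-high libraries. mt-Td (aspartate) and mt-Tk (lysine) had 0 counts in all 10 libraries, which allows up to 3 counts, or 0.0140 CPM of the summed total counts. That floor covers counting error only.

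Counts on tRNA genes differed by strand. The 8 genes encoded on the minus strand held 6369 of the 7066 tRNA counts, 90.1% in all and 83.2% to 96.3% in each library, while the 14 genes on the plus strand held 697. On the minus strand, 7 of 8 genes passed the filter, and mt-Ts1, with 37 counts, did not. On the plus strand 2 of 14 passed, mt-Tm with 317 counts and mt-Tl1 with 115. The plus-strand tRNA genes are read in the same direction as 12 of the 13 mRNA genes and both rRNA genes, from the same precursor. Most minus-strand tRNA genes lie opposite that precursor, and without the strand setting their reads and antisense reads cannot be told apart.

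**Figure D4:**
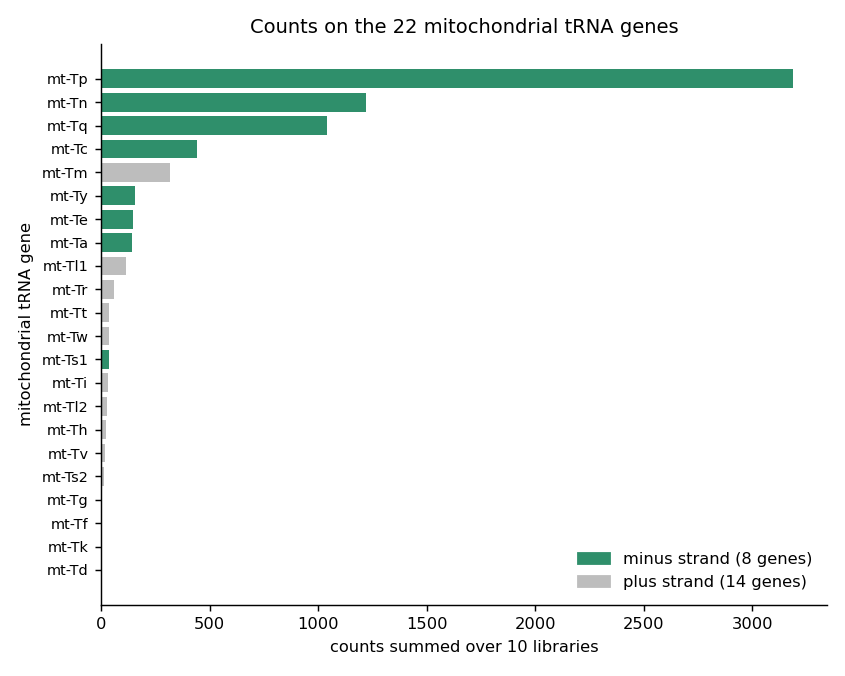
Counts summed over the 10 libraries for each of the 22 mitochondrial tRNA genes, with minus-strand genes in green and plus-strand genes in grey. The 4 longest bars are the minus-strand genes mt-Tp, mt-Tn, mt-Tq and mt-Tc, and mt-Td and mt-Tk have no counts.

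No mitochondrial genome gene was called between the genotypes. edgeR called 0 of the 24 tested genes at an adjusted p under 0.05, and it called 0% of all 19244 genes. Taf4b, the mutated gene, was not called either, with a log2 fold change of −1.22 ± 0.35 (SE) and an edgeR adjusted p of 0.155. Its DESeq2 adjusted p in the authors' deposited table was 0.000152. The absence of edgeR calls therefore does not show that the members are unchanged. At an unadjusted p under 0.05, 0 of 24 passed, against 16.6% of all genes. No gene of the 24 had genotype ranges of CPM that did not overlap, against 3.53% of all genes. The fold change was above 0 for 14 of 24, against 48.9% of all genes. DESeq2 called 0 of the 24 members and 3.35% of all the genes to which it gave an adjusted p, and limma on log2(TPM + 1) called 0. edgeR without heterozygous 1 called 3.07% of all genes and 0 members. In the authors' deposited table, with its sign read as deficient over heterozygous from Taf4b, 0 of the 22 members with an adjusted p were called, against 6.55% of its genes. At an unadjusted p under 0.05 that table had 3 of 33 members, against 14.4% of its genes. In the authors' deposited table these were mt-Nd6 (log2 fold change 0.69, adjusted p 0.153), mt-Nd5 (0.66, 0.164) and mt-Rnr2 (0.52, 0.184). Some directions in that table were opposite to those of edgeR and DESeq2 here, which lay below 0. These were mt-Nd1 (0.04), mt-Nd2 (0.18), mt-Atp8 (0.13), mt-Nd3 (0.09), mt-Nd4l (0.34), mt-Cytb (0.07) and mt-Tm (0.40). The other tested members kept their edgeR direction, and the cause was not tested.

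The median log2 fold change was 0.07 over the 13 protein-coding genes and 0.14 over the 9 tested tRNA genes, beside −0.02 over all tested genes. Among tested tRNA genes the values ran from −0.43 ± 0.47 (SE) for mt-Tp to 0.48 ± 0.42 (SE) for mt-Tq. Within litter dates 1, 2 and 3, the protein-coding median of the log2 difference was 0.05, 0.34 and −0.31, and the tRNA median 0.05, 0.26 and −0.18. For the rRNA genes the log2 difference was 0.91, 0.35 and −0.16 (mt-Rnr1) and 0.55, 0.72 and −0.02 (mt-Rnr2). The sign thus differed between dates, each of which holds 3 or 4 libraries. The protein-coding median was −0.19 without heterozygous 3, −0.17 without deficient 5 and 0.23 without heterozygous 5. With total counts in place of TMM scaling it was −0.01. Leaving out the globin-high libraries keeps heterozygous 1, 2 and 3 and deficient 1 to 4. Among these is heterozygous 3, the lowest library for 13 of 13 protein-coding genes. The protein-coding median was then 0.48 and the tRNA median 0.73, beside 0.02 over all tested genes. In this setting 22 of 23 tested members had a fold change above 0. None of them was called, and these medians were not tested.

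**Figure D5:**
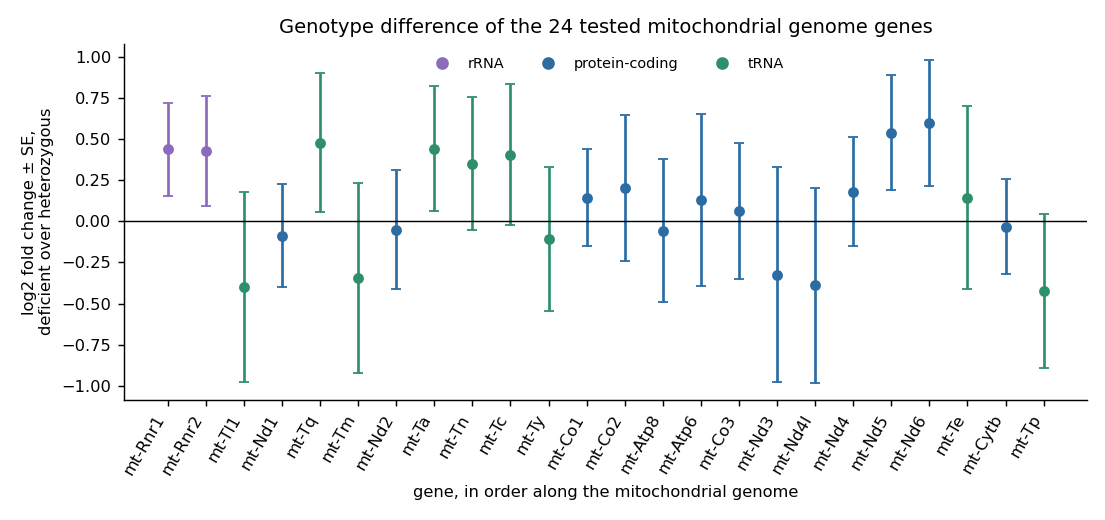
Log2 fold change, deficient over heterozygous, with its SE for the 24 tested mitochondrial genome genes in genome order. Values run from −0.43 for mt-Tp to 0.60 for mt-Nd6, and none was called.

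Nuclear genes that serve mitochondrial gene expression were read from 7 lists with 110 genes, of which 109 were tested. edgeR called 0 of them, and 20 (18.3%) had an unadjusted p under 0.05, near the 16.6% of all genes. Fold changes were above 0 for 32 and below 0 for 77, with a median of −0.15. Genotype ranges of CPM did not overlap for 8 of 109, against 3.53% of all genes. In the list of mitochondrial transcription, 4 of 11 were above 0. Polrmt, the polymerase, was at 150.1 ± 70.0 CPM in the heterozygous and 111 ± 33.5 CPM in the deficient libraries (SD, n = 5 each). Tfam, which packages mitochondrial DNA and starts transcription, was at 64.9 ± 11.2 and 67.4 ± 3.72 CPM. Tfb2m, which opens the promoter, was at 37.0 ± 11.8 and 26.5 ± 1.10 CPM (SD, n = 5 each), with an edgeR adjusted p of 0.276. Its log2 fold change of −0.48 became −0.27 without heterozygous 3. Tefm, the elongation factor, had a log2 fold change of −0.09 ± 0.19 (SE).

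In the list of RNA processing and modification, 4 of 27 were above 0, and Trnt1, which adds the CCA end of tRNAs, was at 173 ± 65.8 and 117 ± 5.07 CPM (SD, n = 5 each) without overlap. Heterozygous 3 had 290.1 CPM of Trnt1 and the other heterozygous libraries 138 to 147 CPM, and the log2 fold change of −0.57 became −0.31 without heterozygous 3. In that of RNA stability and decay, 5 of 14 were above 0. Lrpprc and Slirp, partners that stabilise mitochondrial mRNAs, had log2 fold changes of 0.21 ± 0.22 and −0.21 ± 0.31 (SE). Fastkd2, an RNA-binding protein needed for 16S rRNA, was at 79.3 ± 11.7 CPM in the heterozygous and 46.7 ± 3.89 CPM in the deficient libraries (SD, n = 5 each), without overlap. Its log2 fold change was −0.76 ± 0.16 (SE), with an edgeR adjusted p of 0.116, and DESeq2 called it.

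In the lists of translation factors and of aminoacyl-tRNA synthetases, 5 of 14 and 4 of 22 were above 0. Gatb, a subunit of the enzyme that makes glutaminyl-tRNA, was at 157 ± 33.7 and 100.1 ± 7.74 CPM (SD, n = 5 each), without overlap. Its log2 fold change was −0.65 ± 0.18 (SE), with an edgeR adjusted p of 0.151, and DESeq2 called it. Lars2, the mitochondrial leucyl-tRNA synthetase, was at 3619, 2362, 379.5, 2007 and 2625 CPM in heterozygous 1 to 5. The deficient libraries had 7127, 10192, 6812, 5941 and 5341 CPM. Every deficient library lay above every heterozygous one, and heterozygous 3 was lowest here as well. The means of Lars2 were 2199 and 7082 CPM, while all genes of the synthetase list summed to 4155 and 8826 CPM (heterozygous before deficient). What part of these reads comes from Lars2 mRNA was not tested. The log2 fold change of Lars2 was 1.69 ± 0.45 (SE), with an edgeR adjusted p of 0.145. DESeq2 called it, as did edgeR with no filter on low counts. Among 12 genes of DNA replication and maintenance, 4 were above 0, and Tk2, the mitochondrial thymidine kinase, had a log2 fold change of −0.53 ± 0.20 (SE). Of 9 tested regulators of mitochondrial biogenesis 6 were above 0, and Sirt1, a deacetylase that acts on such regulators, was at 53.9 ± 8.11 and 92.4 ± 15.8 CPM (SD, n = 5 each), without overlap. The edgeR adjusted p of Sirt1 was 0.117, and DESeq2 called it. Without heterozygous 1, edgeR also called Fastkd2, Lars2 and Sirt1, with log2 fold changes of −0.83, 1.95 and 0.88. It called 3.07% of all genes in that setting. With heterozygous 2 left out instead it called 1 gene in all, and with any other library left out 0.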

How the data were processed

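RNA-seq counts per gene of 10 libraries were deposited by the authors as whole numbers. Per the submitters' processing notes, the tools were Trim Galore 0.5.0, FastQC 0.11.5, HISAT2 2.1.0, SAMtools 1.9, StringTie 1.3.3b, featureCounts (Subread 1.6.2) and DESeq2, and the build was GRCm38. The authors deposited TPM too, in a table named for StringTie. Their deposited DESeq2 table gives, per the file headers, a signal (mean normalized count), log2 fold changes with SE, a Wald score, p-values and adjusted p-values. The library kit and the strand and multi-mapping settings were not given in the sources used here.

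The quasi-likelihood test of edgeR 4.0.16 (R 4.3.3) was run on all counts with genotype as the sole term, TMM scaling and the package's expression filter. Adjusted p-values are Benjamini-Hochberg over all 19244 tested genes and were called under 0.05. CPM use TMM-scaled library sizes, and SE is the log2 fold change over the root of its F statistic. The procedure was checked on simulated counts with planted changes larger than any member showed, so its power at the size of the member changes was not checked. Nuclear copies were found with blastn 2.17.0 at 90% identity over 200 bases or more. Positions of all 37 genes equal GENCODE M21. Litter differences used log2(CPM + 0.5).

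The rule for named genes takes all protein-coding and rRNA members, tested tRNA members among the 6 highest or the 3 with the smallest p, nuclear copies, and from each nuclear list the 3 genes with the smallest p, plus Polrmt, Tfam, Tfb2m, Tefm, Lrpprc and Slirp. Of these, values are given only for some nuclear genes. Gm10222 and the less alike copies were found by alignment, and mt-Td, mt-Tk, mt-Ts1 and mt-Tl1 were named after their values were seen. The members and lists were chosen with earlier results of these data known. Marker lists covered germ, erythroid, pregranulosa, stromal, endothelial, surface epithelium and macrophage cells. In heterozygous and deficient libraries, stromal markers summed to 13.4 to 60.6 and 13.8 to 91.7 CPM, endothelial markers to 18.0 to 90.2 and 14.2 to 66.7 CPM, and surface epithelium markers to 31.5 to 56.3 and 25.3 to 49.0 CPM. Alternatives were other scalings and filters, DESeq2 1.42.0, limma 3.58.1 on log2(TPM + 1) or log2(TPM + 0.1), a term for litter date, replicate number or globin-high libraries, and libraries or litter dates left out.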

Additional observations from a re-analysis of the deposited data

Results flagged for a closer look

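mt-Tm in deficient 5 was at 2.32 CPM, far from the other deficient libraries at 0.880 to 1.16 CPM by Dixon's criterion. Deficient 5 is a globin-high library, and the other globin-high libraries had 3.59 and 2.97 CPM of mt-Tm. Of 56 groups of 5 libraries checked, this was the 1 beyond the critical value, and chance flags about 1 in 20 groups. Trnt1, with 290 CPM in heterozygous 3, and Gm10925, with 306 CPM in deficient 4, also stood apart but were not among the groups checked.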

How the results depend on the processing

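No member was called under any of the 26 alternatives, but the class medians depended on the libraries used. Without the globin-high libraries the protein-coding median of 0.07 became 0.48 and the tRNA median of 0.14 became 0.73. That setting keeps only heterozygous 1, 2 and the low heterozygous 3, against deficient 1 to 4. The share difference was −0.11 percentage points by TPM, and −0.18 to 0.44 with 1 library left out. Other directions that turned belonged to fold changes that were not called, and the cause was not tested. Without the globin-high libraries the values were 0.18 for mt-Nd1, 0.36 for mt-Nd2, 0.27 for mt-Atp8, 0.17 for mt-Nd3, 0.80 for mt-Nd4l, 0.12 for mt-Cytb, 0.84 for mt-Tm, 0.12 for mt-Ty, 0.033 for Tefm, 0.063 for Slirp and 0.47 for Gm28661. With these libraries as a covariate they were 0.061 for mt-Nd1, 0.21 for mt-Nd2, 0.19 for mt-Atp8, 0.37 for mt-Nd4l, 0.11 for mt-Cytb, 0.43 for mt-Tm, 0.012 for Tefm and 0.072 for Gm28661. mt-Co3 was at −0.0091 with total counts only, −0.023 with litter date as a covariate and −0.0059 without litter date 2. Without litter date 2, mt-Atp6 was at −0.16, mt-Cytb at 0.028 and Lrpprc at −0.079. Without litter date 1, mt-Atp6 was at −0.024 and mt-Ty at 0.054. With limma on log2(TPM + 0.1), mt-Nd3 was at 0.30 and Tfam at −0.042, and on log2(TPM + 1) Tfam was at −0.042 too.

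With 1 library left out at a time, fold changes that changed sign ran from −0.29 to 0.052 for mt-Nd1, −0.28 to 0.22 for mt-Nd2, −0.045 to 0.24 for mt-Co1, −0.074 to 0.44 for mt-Co2, −0.28 to 0.23 for mt-Atp8, −0.23 to 0.84 for mt-Atp6, −0.20 to 0.31 for mt-Co3, −0.69 to 0.020 for mt-Nd4l, −0.028 to 0.35 for mt-Nd4, −0.19 to 0.12 for mt-Cytb, −0.68 to 0.15 for mt-Tm, −0.34 to 0.090 for mt-Ty, −0.019 to 0.14 for Tfam, −0.19 to 0.014 for Tefm, −0.34 to 0.015 for Slirp, −0.13 to 0.39 for Gm28437, −0.016 to 0.78 for Gm28439, −0.91 to 0.18 for Gm28661 and −0.65 to 1.47 for Gm10925. The values for mt-Rnr1, mt-Rnr2, mt-Nd5 and mt-Nd6 stayed above 0, at 0.28 to 0.60, 0.21 to 0.61, 0.32 to 0.77 and 0.39 to 0.87. The class medians ran from −0.19 to 0.23 for protein-coding and from −0.13 to 0.40 for tRNA genes.

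The genotypes share replicate numbers, but heterozygous 2 and deficient 2 have different litter dates, as do heterozygous 4 and deficient 4. The labels thus do not pair the samples by litter through these numbers. Correlations of same-numbered libraries were 0.19, 0.06, 0.15, −0.31 and 0.64, which cannot show whether samples were paired. Both libraries numbered 5, at 0.64, are globin-high and from litter date 3. A fit with the replicate number as a block called 1 gene in all, 0 of them members, with medians of 0.21 for protein-coding and 0.39 for tRNA genes. Under the block mt-Nd1 was at 0.012, mt-Nd2 at 0.088, mt-Nd3 at 0.21, mt-Nd4l at 0.077, mt-Tm at 0.040 and Gm28661 at 0.037. Counts of all genes called ran from 0 to 679 across alternatives, with 251 when no filter was used, 241 with the globin covariate and 606 without heterozygous 1. Tested tRNA genes had 1 to 657 counts in a library. The SE was 0.58 for mt-Tl1, with 1 to 23 counts, and 0.29 for mt-Co1, with 73639 to 210506. It was 0.38 both for mt-Ta, with 7 to 20 counts, and for mt-Nd6, with 1228 to 5348. Fewer counts thus went with a larger SE in the first pair and not in the second.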
